A study of Mus musculus with 6 samples.

Results

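The genes described here encode the machinery that moves RNA polymerase II (RNA Pol II) out of promoter-proximal pausing and through the gene, together with Integrator, a complex that cleaves nascent RNA and ends transcription early. They were chosen by name from what their products are known to do. The rule used no measured value, but it was written with earlier results of these data known. Of 45 names, 43 were found among the 17924 genes of the expression table, and all 43 were abundant enough to be tested. Ell3 and Gdown1 were not found under those symbols.

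RNA was sequenced from dermal fibroblasts of newborn (P0) C57BL/6J pups that had been kept for 14 days in a medium that drives adipocyte differentiation. CTL cells came from Nelfb wt/wt or Nelfb fl/wt pups and Nelfb-/- cells from Nelfb fl/fl pups, and all of them carried Pdgfra-Cre, with 3 biological replicates in each group. Cre was driven by Pdgfra, a gene of fibroblasts and preadipocytes, so cells in the culture that never expressed it could keep Nelfb.

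Shortly after initiation RNA Pol II halts near the promoter, held there by NELF, of which Nelfb is a subunit, and by DSIF. The kinase P-TEFb phosphorylates NELF, DSIF and the polymerase tail and so releases it, and much of the P-TEFb in a cell is kept inactive by HEXIM proteins on the 7SK RNA. The super elongation complex carries active P-TEFb, the PAF complex, SPT6 and FACT travel with the polymerase through chromatin, and Integrator acts on paused polymerase with an RNA endonuclease and a bound phosphatase.

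Values are in CPM, counts per 1000000 reads on the listed genes. The CPM values of Nelfb were 17.3, 19.6 and 22.3 in the 3 CTL libraries and 5.5, 3.9 and 5.55 in the 3 Nelfb-/- libraries (log2 fold change -1.99, SE 0.22, limma adjusted p = 0.0050), so the labels held. Depth was 17.2 to 29.4 M reads (M, 1000000). CTL replicate 3 and Nelfb-/- replicate 1 stood apart from their groups on the second principal component, which held 27.7% of the variance. The cells are labelled as adipocytes, and the summed CPM of 9 adipocyte markers was 22683 to 37051 in CTL and 14589 to 23014 in Nelfb-/- libraries, most of it from Fabp4 and Lpl. Of the 9, 7 had lower estimates and 2 passed the test, Retn (log2 fold change -2.12) and Lep (5.26). The sums of 5 other marker lists were higher in every Nelfb-/- library than in every CTL library, namely macrophage (9 genes, 167 to 654 CPM in CTL and 1661 to 5193 CPM in Nelfb-/-, 8 of 9 past the test), melanocyte (5 genes, 1.22 to 1.43 and 30.3 to 72.1 CPM, 5 of 5, with Tyr at 0 in every CTL library), skeletal muscle (5 genes, 4.62 to 5.88 and 29.3 to 53.2 CPM, 3 of 3 tested), Schwann cell (3 genes, 41.9 to 57.1 and 86.0 to 109 CPM, 2 higher and 1 lower) and keratinocyte (3 genes, 0.442 to 1.49 and 4.36 to 11.1 CPM, 1 of 3). Fibroblast markers (9 genes, 2625 to 11924 and 6410 to 25707 CPM, 2 of 8 tested past the test), markers of proliferating cells (9 genes, 108 to 447 and 148 to 583 CPM, 0 of 9) and endothelial markers (4 genes, 6.7 to 10.2 and 6.81 to 18.5 CPM, 0 of 4) overlapped between the groups. The part of these cell types in the results that follow was not tested, and in bulk RNA fewer cells of a type cannot be told apart from less RNA per cell.

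About as large a share of these genes as of all genes passed the test in Nelfb-/- cells. The 6 that did had a limma adjusted p of at most 0.05 over all 16251 genes tested. Hexim1, Mllt3 and Ints7 fell and Mllt1, Ints14 and Supt16 rose. These 6 are 14.0% of the 43, beside 15.8% of all genes tested, so the share is near the background. Passing genes that were higher made up 9.96% of all genes and those that were lower 5.83%. Hexim1 alone also changed at least 2-fold (2.33% of the 43, beside 11.2% of all genes), a count that became 2 or 3 under other scalings, 4 without CTL replicate 3 and 2 without Nelfb-/- replicate 1. The median log2 fold change of the 43 was 0.03 and that of all genes 0.07, while the median size of the change, without its sign, was 0.25 and 0.43. The groups did not overlap for 17 of the 43 genes (39.5%, beside 38.1% of all genes), with Nelfb-/- above CTL for 9 (22.0% of all genes) and below for 8 (16.1% of all genes). Summed over the 43 genes, the level was 2727, 2774 and 2459 CPM in CTL, against 2773, 2349 and 2369 CPM in Nelfb-/- libraries, which overlap.

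**Figure D1:**
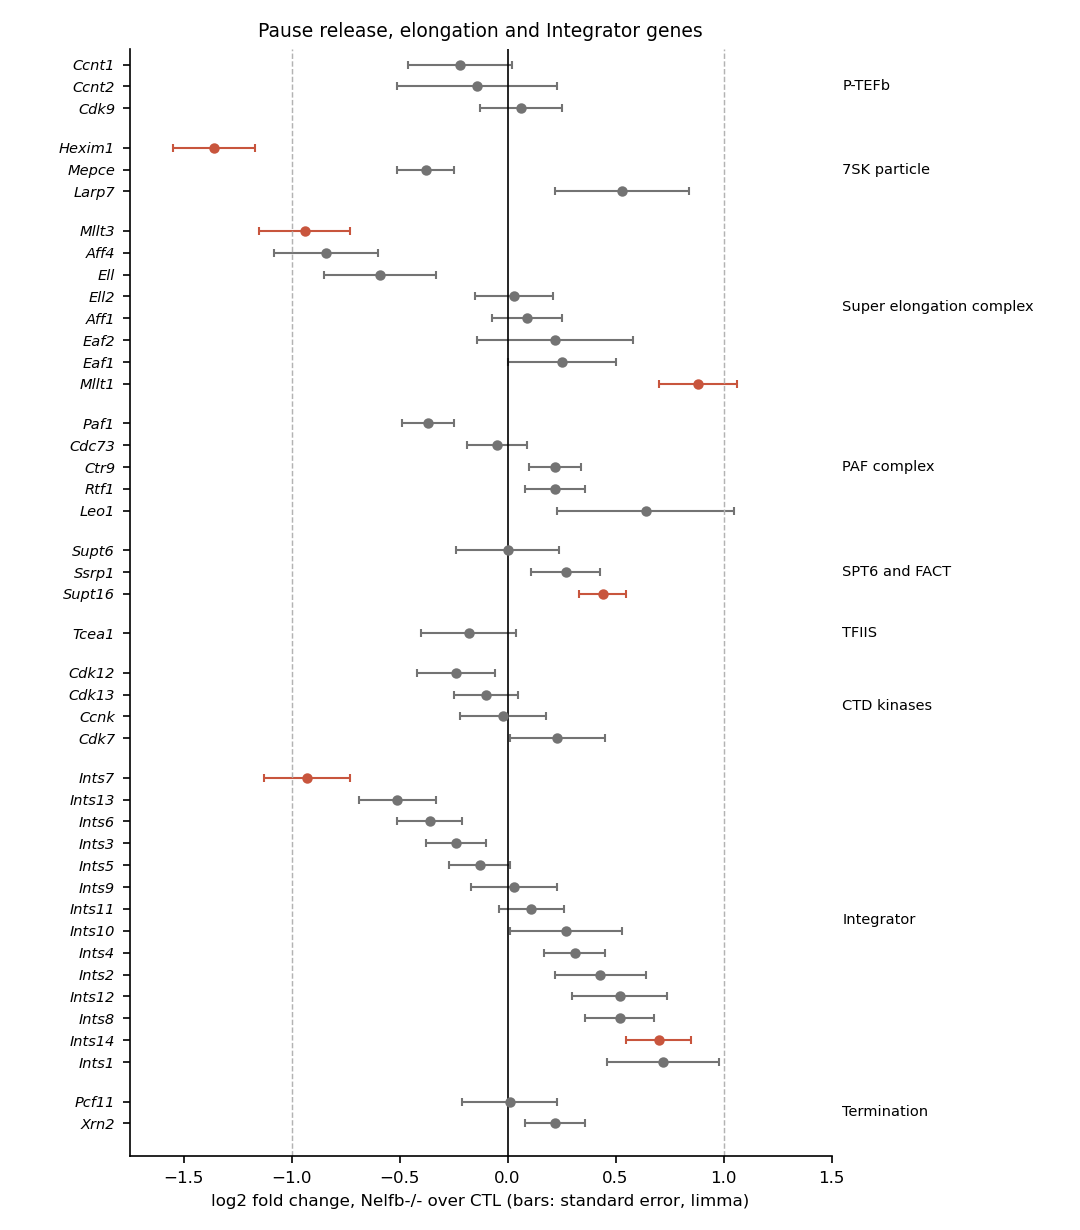
Log2 fold change of Nelfb-/- over CTL (x axis) for the 43 genes (y axis), grouped by complex. Points are limma estimates and bars their standard errors (3 libraries a group), red points passed an adjusted p of 0.05, and dashed lines mark 2-fold. Most points lie between the dashed lines, and Hexim1 at -1.36 is the one outside them.

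Only Hexim1 kept its call whichever of the 6 libraries was left out. The calls of Mllt1, Mllt3, Ints7 and Ints14 were lost without CTL replicate 1 or 2 or Nelfb-/- replicate 2 or 3 (1 of the 43 passing in each case, beside 5.63%, 4.87%, 6.33% and 2.68% of all genes) and kept without CTL replicate 3 or Nelfb-/- replicate 1 (8 of the 43 in each case, beside 22.5% and 18.3% of all genes), and that of Supt16 was lost without any of the 6. The number of calls over all genes thus moved with the same libraries. Without both of the libraries that stand apart, 30 of the 43 genes passed, but so did 57.8% of all genes, an alternative chosen after the data were seen and with 2 libraries left in each group.

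The promoters of the 6 genes are shown first, as the annotated start regions of the genes that passed. Each runs from 250 bases before to 50 bases after the first start that RefSeq lists (GRCm38.p6, the build of the expression table), 5′ to 3′ on the gene's strand. Capitals mark GGGCGG, the core of the GC box bound by Sp1 family factors, and CCAAT, the box bound by NF-Y, each on either strand, where copies of GGGCGG may overlap each other.
Hexim1, chr11:103116075-103116374, plus strand: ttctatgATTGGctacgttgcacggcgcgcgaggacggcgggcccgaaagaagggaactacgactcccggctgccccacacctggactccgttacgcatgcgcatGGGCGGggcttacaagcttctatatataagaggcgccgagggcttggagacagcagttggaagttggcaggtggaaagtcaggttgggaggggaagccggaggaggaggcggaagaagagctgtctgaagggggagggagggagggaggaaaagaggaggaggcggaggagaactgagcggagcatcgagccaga
Mllt1, chr17:56935339-56935638, minus strand: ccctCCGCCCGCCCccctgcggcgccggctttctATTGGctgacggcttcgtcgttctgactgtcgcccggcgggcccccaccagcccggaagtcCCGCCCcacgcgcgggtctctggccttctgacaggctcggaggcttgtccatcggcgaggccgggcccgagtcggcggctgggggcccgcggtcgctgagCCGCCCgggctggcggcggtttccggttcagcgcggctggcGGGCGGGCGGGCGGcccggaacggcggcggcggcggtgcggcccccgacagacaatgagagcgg
Mllt3, chr4:88033358-88033657, minus strand: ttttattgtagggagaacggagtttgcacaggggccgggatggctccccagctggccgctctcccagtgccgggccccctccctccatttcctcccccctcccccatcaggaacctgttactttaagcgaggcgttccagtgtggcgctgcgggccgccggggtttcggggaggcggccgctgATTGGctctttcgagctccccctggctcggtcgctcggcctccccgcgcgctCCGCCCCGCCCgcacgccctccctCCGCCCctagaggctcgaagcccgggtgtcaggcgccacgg
Supt16, chr14:52197190-52197489, minus strand: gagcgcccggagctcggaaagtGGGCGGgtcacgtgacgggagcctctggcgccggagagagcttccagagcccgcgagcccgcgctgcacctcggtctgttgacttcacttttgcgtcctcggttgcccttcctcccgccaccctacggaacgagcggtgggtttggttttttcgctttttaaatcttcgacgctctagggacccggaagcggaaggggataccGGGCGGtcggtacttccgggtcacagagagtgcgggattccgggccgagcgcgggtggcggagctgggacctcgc
Ints7, chr1:191575386-191575685, plus strand: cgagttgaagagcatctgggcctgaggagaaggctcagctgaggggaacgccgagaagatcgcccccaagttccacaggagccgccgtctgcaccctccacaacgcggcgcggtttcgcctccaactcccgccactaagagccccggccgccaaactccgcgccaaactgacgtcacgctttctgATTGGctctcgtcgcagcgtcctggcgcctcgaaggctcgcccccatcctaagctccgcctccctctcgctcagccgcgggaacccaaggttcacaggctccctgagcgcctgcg
Ints14, chr9:64960582-64960881, plus strand: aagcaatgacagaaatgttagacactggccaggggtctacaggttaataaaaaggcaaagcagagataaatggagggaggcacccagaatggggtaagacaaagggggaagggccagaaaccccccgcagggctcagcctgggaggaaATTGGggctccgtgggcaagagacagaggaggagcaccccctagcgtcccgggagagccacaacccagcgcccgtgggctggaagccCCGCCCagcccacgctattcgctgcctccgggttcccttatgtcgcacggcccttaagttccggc

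GGGCGG was found 7 times in the Mllt1 promoter, 3 times in that of Mllt3, 2 times in that of Supt16, 1 time each in those of Hexim1 and Ints14, and 0 times in that of Ints7. CCAAT was found 1 time in each except that of Supt16. Over the 36 of the 43 genes with a RefSeq promoter, 27 (75.0%) held GGGCGG, compared with 63.0% of the promoters of genes tested and 35.9% of all promoters of this length. CCAAT stood in 20 of 36 (55.6%), compared with 39.0% and 37.9%. TATAAA, on either strand, stood in 0 of 36, compared with 7.49% and 14.2%. This exact word leaves out its variants, and the Hexim1 promoter holds TATATAAG. CACGTG, the E-box, stood in 4 of 36 (11.1%), compared with 10.1% and 7.24%, and TGACTCA, the AP-1 word, in 0 of 36, compared with 3.69% and 5.17%. These are matches of letters only.

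The transcripts of P-TEFb itself did not pass the test (0 of 3, beside 15.8% of all genes). Cdk9, the kinase, was measured at 56.7, 64.2 and 44.4 CPM in CTL, against 67.4, 49.3 and 54.8 CPM in Nelfb-/- libraries. The groups overlap, and the log2 fold change was 0.06 (95% interval -0.40 to 0.52, limma adjusted p = 0.87). Of the cyclins that activate it, Ccnt1 was at 74.5, 74.0 and 54.4 CPM in CTL, against 78.4, 47.2 and 51.2 CPM in Nelfb-/- libraries, a log2 fold change of -0.22, and Ccnt2 had one of -0.14. Per kb of exon, Cdk9 was the most abundant of the 3 in either group, at 11.9 ± 2.17 (SD, n = 3) CPM per kb in CTL and 12.4 ± 2.01 in Nelfb-/- cells, followed by Ccnt1 and Ccnt2.

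The transcript of an inhibitor of P-TEFb fell. Hexim1 (ENSMUSG00000048878, chr11:103116231-103119725, mm10), which binds 7SK RNA and blocks the kinase, was at 72.2, 60.1 and 55.9 CPM in CTL, against 19.5, 25.7 and 28.6 CPM in Nelfb-/- libraries. All 3 Nelfb-/- values were under the lowest CTL value, with means of 62.7 ± 8.5 and 24.6 ± 4.66 CPM (SD, n = 3). On the log2 scale the difference was -1.36 (SE 0.19, adjusted p = 0.0088 by limma), and leaving out a library moved it between -1.48 and -1.20 with an adjusted p of 0.011 to 0.041. The genes of the other proteins of the 7SK particle did not pass. Mepce, which caps the 7SK RNA, was at 33.9, 32.9 and 35.5 CPM in CTL, against 26.7, 24.3 and 27.5 CPM in Nelfb-/- libraries, without overlap but short of the test (log2 fold change -0.38, adjusted p = 0.087), which it passed under quantile normalization. Larp7, which protects the 3′ end of 7SK, was at 12.1, 10.4 and 21.4 CPM in CTL, against 15.6, 23.1 and 22.8 CPM in Nelfb-/- libraries, with CTL replicate 3 among the Nelfb-/- values (log2 fold change 0.53, adjusted p = 0.29). Per kb of exon Hexim1 was the first of the 3 in CTL (18.0 ± 2.43 CPM per kb, beside 9.6 ± 0.358 for Mepce and 6.19 ± 2.51 for Larp7) and the last in Nelfb-/- cells (7.04 ± 1.33, beside 7.36 ± 0.459 and 8.66 ± 1.79), where the 3 lie within their spread.

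Hexim2, the paralog of Hexim1, lies 12703 bases downstream of it on chromosome 11. Its level was 5.82, 5.88 and 4.28 CPM in CTL, against 2.37, 2.1 and 1.47 CPM in Nelfb-/- libraries, and it also fell (log2 fold change -1.42, SE 0.28, limma adjusted p = 0.022). It was chosen for mention after its values were seen, and it passed in 2 of the 6 fits that left out a library.

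**Figure D2:**
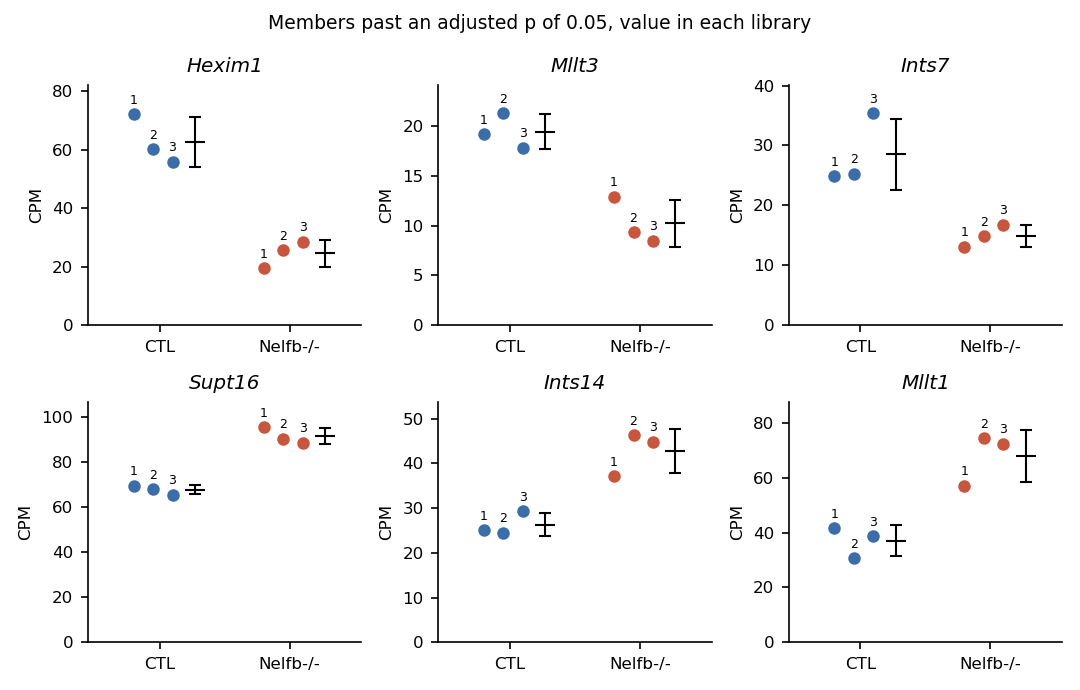
Level in CPM (y axis, from 0) of the 6 genes that passed the test, in each CTL (blue) and Nelfb-/- (red) library, numbered by replicate. Black bars give the mean and SD of 3 libraries, and in all 6 panels the 2 groups do not overlap.

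In the super elongation complex 2 of 8 genes passed (25.0%, beside 15.8% of all genes), in opposite directions, and they are paralogs. The count ran from 0 to 4 when a library was left out. Mllt1 (ENL, chr17:56892611-56935415) and Mllt3 (AF9, chr4:87769925-88033364) encode YEATS-domain proteins that read acylated histones and bridge the complex to chromatin. Mllt1 was at 41.6, 30.7 and 38.6 CPM in CTL, against 57.1, 74.3 and 72.3 CPM in Nelfb-/- libraries, and it rose (log2 fold change 0.88, SE 0.18, limma adjusted p = 0.022). Mllt3 was at 19.2, 21.3 and 17.8 CPM in CTL, against 12.9, 9.31 and 8.49 CPM in Nelfb-/- libraries, and it fell (log2 fold change -0.94, SE 0.21, limma adjusted p = 0.029). Neither pair of groups overlaps. Per kb of exon Mllt1 went from 9.43 ± 1.43 to 17.3 ± 2.4 CPM per kb and Mllt3 from 1.62 ± 0.147 to 0.854 ± 0.198.

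Aff4, the scaffold on which the complex assembles, was the most abundant of the 8 per kb of exon in CTL (36.7 ± 8.75 CPM per kb, followed by Ell at 20.2 ± 1.45). In Nelfb-/- cells its level of 20.3 ± 3.67 CPM per kb lay within the spread of those of Aff1 (18.3 ± 2.44), Eaf1 (17.9 ± 6.47) and Mllt1 (17.3 ± 2.4). It was at 530, 588 and 362 CPM in CTL, against 329, 241 and 247 CPM in Nelfb-/- libraries. All Nelfb-/- values were below all CTL values, but CTL replicate 3 and Nelfb-/- replicate 1 came close to each other and the test was missed (log2 fold change -0.84, SE 0.24, limma adjusted p = 0.061). It passed when either of those libraries was left out, and under upper-quartile scaling. Its paralog Aff1 was at 173, 169 and 145 CPM in CTL, against 198, 152 and 171 CPM in Nelfb-/- libraries (log2 fold change 0.09). Ell, an elongation factor that suppresses pausing, was at 62.5, 67.3 and 58.2 CPM in CTL, against 62.0, 37.4 and 30.9 CPM in Nelfb-/- libraries, where replicate 1 alone stayed in the CTL range (log2 fold change -0.59, adjusted p = 0.17, and 0.019 without that replicate). Ell2, Eaf1 and Eaf2 had log2 fold changes of 0.03, 0.25 and 0.22. The ELL partner Eaf2 was scarce, at 0.722 to 1.28 CPM over the 6 libraries. The Eaf2 gene overlaps Iqcb1 (mean 9.44 CPM) on the other strand. Ell2 was at 110, 123 and 97.5 CPM in CTL, against 138, 101 and 100 CPM in Nelfb-/- libraries.

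Paralogs and partners were also compared as ratios within a library, on the scale with the pseudocount of 1 read, which lowers the ratio to a scarce gene such as Eaf2. The log2 ratio of Mllt1 to Mllt3 was 1.11, 0.53 and 1.12 in CTL and 2.14, 2.99 and 3.08 in Nelfb-/- libraries, a difference of 1.82 (SE 0.359). That of Aff1 to Aff4 was -1.62, -1.8 and -1.32 in CTL and -0.74, -0.67 and -0.54 in Nelfb-/- libraries, a difference of 0.93 (SE 0.153). That of Ell to Ell2 was -0.82, -0.88 and -0.74 in CTL and -1.16, -1.44 and -1.7 in Nelfb-/- libraries, a difference of -0.62 (SE 0.161). These 3 of 7 pairs did not overlap between the groups. Each reached the smallest two-sided exact permutation p that 3 against 3 libraries allow, 0.1 (0.233 adjusted over the 7 pairs), so none could pass 0.05. The other 4 overlapped, with differences of -0.08 for Ccnt1 to Ccnt2, 0.03 for Eaf1 to Eaf2, -0.14 for Cdk12 to Cdk13 and 0.16 for Supt16 to Ssrp1 (exact permutation p = 0.6, 0.9, 0.2 and 0.6).

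**Figure D3:**
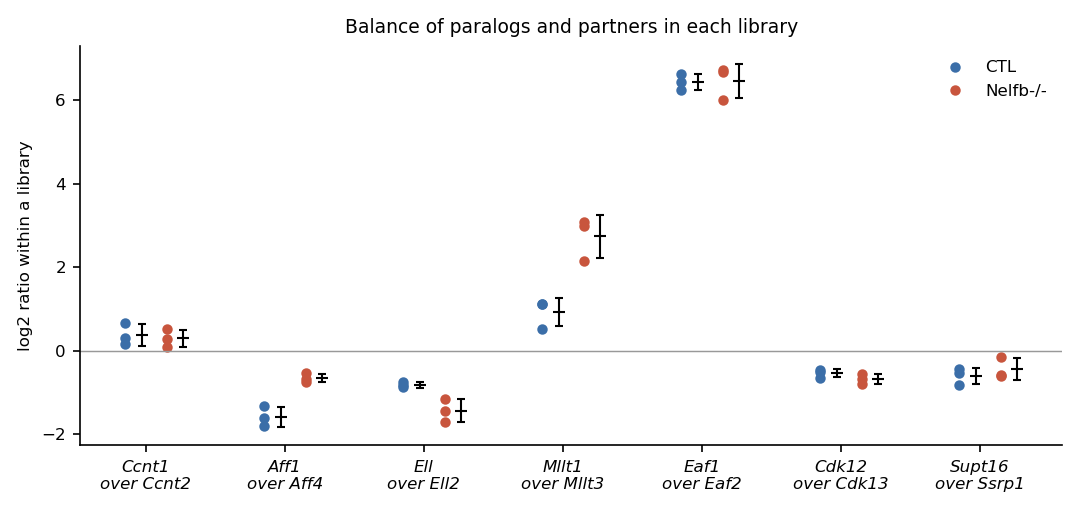
Log2 ratio of 2 genes within a library (y axis) for 7 pairs (x axis) in CTL (blue) and Nelfb-/- (red) libraries, with black bars for the mean and SD of 3. Aff1 over Aff4 and Mllt1 over Mllt3 are higher and Ell over Ell2 is lower in all Nelfb-/- libraries, and the other pairs overlap.

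None of the 5 PAF complex genes passed the test, beside 15.8% of all genes. Leo1 had the largest estimate, 0.64 on the log2 scale, with the libraries split another way. It was at 17.6, 14.5 and 36.4 CPM in CTL, against 21.9, 40.1 and 40.5 CPM in Nelfb-/- libraries, so that CTL replicate 3 resembled Nelfb-/- replicates 2 and 3, and Nelfb-/- replicate 1 resembled the other CTL libraries (adjusted p = 0.32). The same libraries were high in the sum of the proliferation markers, at 111, 108 and 447 CPM in CTL, against 148, 583 and 518 CPM in Nelfb-/- libraries, and the part of these in the Leo1 values was not tested. Paf1, which gives the complex its name, was at 61.3, 59.5 and 53.3 CPM in CTL, against 42.2, 46.0 and 46.5 CPM in Nelfb-/- libraries, without overlap (log2 fold change -0.37, adjusted p = 0.093). Ctr9, a scaffold subunit, did not overlap either (log2 fold change 0.22, adjusted p = 0.27). Rtf1 had a log2 fold change of 0.22. Cdc73 had the smallest, -0.05, at 62.9, 70.4 and 54.6 CPM in CTL, against 63.3, 59.5 and 58.4 CPM in Nelfb-/- libraries. The Cdc73 gene overlaps B3galt2 (mean 133 CPM) on the other strand.

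Among the histone chaperones 1 of 3 passed (33.3%, beside 15.8% of all genes), and 0 of 3 when any library was left out. Supt16 (chr14:52160414-52197416), the large subunit of FACT, was at 69.5, 67.8 and 65.5 CPM in CTL, against 95.5, 90.4 and 88.5 CPM in Nelfb-/- libraries, and it rose by the smallest step of the 6 genes (log2 fold change 0.44, SE 0.11, limma adjusted p = 0.046). The groups lie well apart and each is tight (SD 1.99 and 3.62 CPM), but the adjusted p is near the threshold, and the call was lost in 8 of the 11 other planned settings. The gene overlaps Rpgrip1 (mean 0.576 CPM) on the other strand. Of the 43 genes, 15 overlap another listed gene, whose means ran from 0.197 to 133 CPM. Ssrp1, the other FACT subunit, was at 94.8, 98.8 and 117 CPM in CTL, against 105, 137 and 133 CPM in Nelfb-/- libraries (log2 fold change 0.27, adjusted p = 0.29). Supt6, which carries histones past the polymerase, was at 197, 183 and 140 CPM in CTL, against 233, 147 and 148 CPM in Nelfb-/- libraries, with a log2 fold change of 0.00 (SE 0.24).

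Tcea1 encodes TFIIS, which restarts backtracked polymerase. It was at 74.2, 78.4 and 121 CPM in CTL, against 69.1, 79.7 and 88.1 CPM in Nelfb-/- libraries, with CTL replicate 3 above all others (log2 fold change -0.18, adjusted p = 0.61). Gdown1, a protein that keeps TFIIF off the polymerase, is encoded by Polr2m, which was looked up apart from the 43 genes. Polr2m was at 141, 153 and 188 CPM in CTL, against 115, 152 and 155 CPM in Nelfb-/- libraries (log2 fold change -0.19, adjusted p = 0.51).

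None of the 4 genes of the kinases of the polymerase tail passed, beside 15.8% of all genes. Cdk12, which phosphorylates serine 2 of the tail repeat with its cyclin Ccnk, was at 64.4, 59.4 and 55.0 CPM in CTL, against 63.1, 42.9 and 47.1 CPM in Nelfb-/- libraries (log2 fold change -0.24). Ccnk was at 56.6, 63.8 and 53.0 CPM in CTL, against 75.2, 48.6 and 50.0 CPM in Nelfb-/- libraries (log2 fold change -0.02). Cdk13, the paralog of Cdk12, and Cdk7, the kinase of TFIIH, had log2 fold changes of -0.10 and 0.23. All 4 overlapped between the groups, while 38.1% of all genes did not.

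Integrator was the largest complex measured. Of 14 genes 2 passed, 1 higher and 1 lower (14.3%, beside 15.8% of all genes, and 0 to 4 genes when a library was left out), and the groups did not overlap for 8 (57.1%, beside 38.1%), 5 above and 3 below CTL. The summed level of the 14 was 356, 350 and 414 CPM in CTL, against 407, 413 and 393 CPM in Nelfb-/- libraries, which overlap.

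Ints7 (chr1:191575636-191623688), a subunit of the backbone of the complex, was at 24.9, 25.3 and 35.4 CPM in CTL, against 13.1, 14.8 and 16.8 CPM in Nelfb-/- libraries, and it fell (log2 fold change -0.93, SE 0.20, limma adjusted p = 0.026). Ints14 (chr9:64960905-64986978), which forms a module with Ints10 and Ints13, was at 25.1, 24.5 and 29.3 CPM in CTL, against 37.1, 46.3 and 44.8 CPM in Nelfb-/- libraries, and it rose (log2 fold change 0.70, SE 0.15, limma adjusted p = 0.028). Its module partners did not pass. Ints13 was at 18.7, 16.5 and 21.3 CPM in CTL, against 15.1, 11.5 and 13.1 CPM in Nelfb-/- libraries, all below CTL (log2 fold change -0.51, limma adjusted p = 0.10, with the test passed under quantile normalization). The Ints13 gene overlaps Fgfr1op2 (mean 62.3 CPM) on the other strand. Ints10 was at 19.8, 16.3 and 28.7 CPM in CTL, against 19.8, 29.5 and 28.0 CPM in Nelfb-/- libraries (log2 fold change 0.27).

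The genes of the catalytic module did not pass the test. Ints11, the RNA endonuclease, was at 7.16 ± 0.976 CPM per kb of exon in CTL and 7.71 ± 0.498 in Nelfb-/- cells (log2 fold change 0.11). Its partner Ints9 had the smallest estimate of the 14, at 15.7, 13.6 and 18.0 CPM in CTL, against 19.3, 15.5 and 13.7 CPM in Nelfb-/- libraries (log2 fold change 0.03). Ints4, which holds that pair, did not overlap between the groups (log2 fold change 0.31, adjusted p = 0.18).

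Among the other subunits, Ints1 was at 24.2, 22.0 and 42.6 CPM in CTL, against 46.5, 47.6 and 45.9 CPM in Nelfb-/- libraries. CTL replicate 3 was close to the Nelfb-/- values, and the log2 fold change of 0.72 missed the test (SE 0.26, adjusted p = 0.11), which it passed without that library (adjusted p = 0.0077). Ints8 lay above CTL in every Nelfb-/- library (log2 fold change 0.52, adjusted p = 0.072, and 0.031 without Nelfb-/- replicate 1), as did Ints12 (0.52, adjusted p = 0.16). Ints6, a subunit of the phosphatase module, lay below in every one (log2 fold change -0.36, adjusted p = 0.14). Ints2, Ints3 and Ints5 overlapped, with log2 fold changes of 0.43, -0.24 and -0.13, and Ints2 passed without CTL replicate 3 (adjusted p = 0.039). Ints2 and Ints8 overlap Brip1os (mean 45.6 CPM) and Ccne2 (mean 10.7 CPM) on the other strand. Whether the counting kept strand is not given in the sources used here. The part of overlapping genes in the levels of the members was not tested.

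Per kb of exon the most abundant Integrator genes in CTL were Ints3 (10.4 ± 1.02 CPM per kb), Ints5 (9.17 ± 0.876), Ints14 (8.03 ± 0.799) and Ints11 (7.16 ± 0.976), neighbours that lie within about their summed spread. The other 10 lay between 1.68 and 3.9 CPM per kb. In Nelfb-/- cells Ints14 came first (13.0 ± 1.51), while Ints7 went from 3.9 ± 0.812 to 2.04 ± 0.249 CPM per kb. The order among the lower 10 was not resolved, since neighbours such as Ints7 and Ints4 (3.47 ± 0.298) in CTL, or Ints13 (1.56 ± 0.213) and Ints6 (1.74 ± 0.24) in Nelfb-/- cells, lay within their spread.

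**Figure D4:**
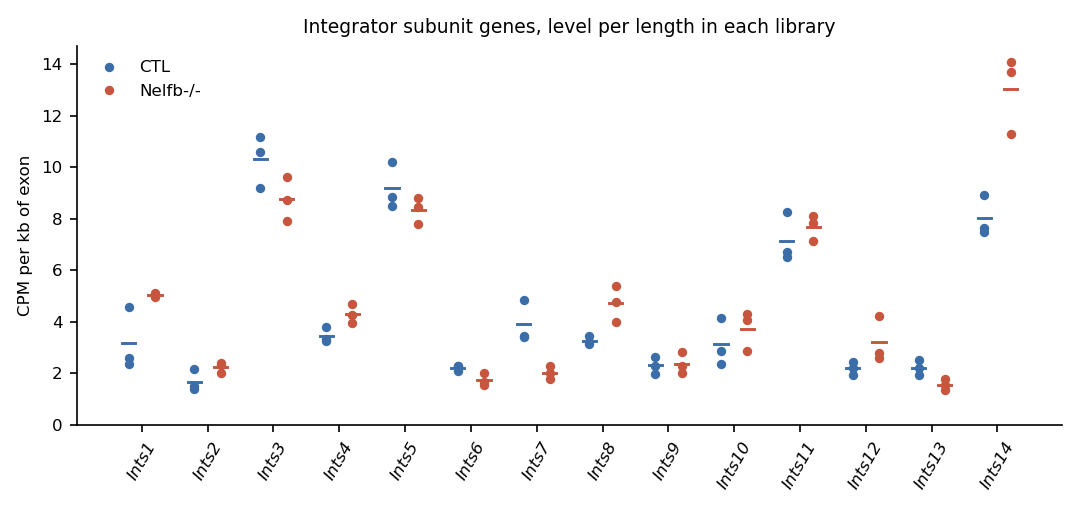
Level in CPM per kb of exon (y axis, from 0) of the 14 Integrator subunit genes in each CTL (blue) and Nelfb-/- (red) library, with a line at the mean of 3. Ints14 is higher and Ints7 lower in every Nelfb-/- library, while Ints9 and Ints11 overlap.

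The termination factors did not pass (0 of 2, beside 15.8% of all genes). Xrn2, the exonuclease that chases the polymerase after cleavage, was at 73.7, 73.0 and 59.5 CPM in CTL, against 84.4, 78.1 and 76.8 CPM in Nelfb-/- libraries, without overlap (log2 fold change 0.22, adjusted p = 0.32). Pcf11, a cleavage factor that binds the polymerase tail, was at 62.6, 58.9 and 42.0 CPM in CTL, against 67.5, 47.6 and 48.7 CPM in Nelfb-/- libraries (log2 fold change 0.01).

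The genes around this machinery were examined in 5 wider lists. Without Nelfb, 5 of their 73 genes passed (6.85%, beside 15.8% of all genes), 2 higher and 3 lower, with a median log2 fold change of 0.03. Of 12 Pol II subunit genes 1 passed (8.33%, beside 15.8% of all genes). It was Polr2l, at 11.3, 10.9 and 6.98 CPM in CTL, against 15.6, 19.0 and 18.3 CPM in Nelfb-/- libraries (log2 fold change 0.88, limma adjusted p = 0.048). Its call was lost in 6 of the 11 other planned settings and kept in 1 of the 6 cases with a library left out. Of the 6 NELF and DSIF genes Nelfb alone passed, and Nelfcd had a log2 fold change of 0.64 (adjusted p = 0.088). Of 25 other elongation factor genes 4 passed (16.0%, beside 15.8% of all genes). Brd2, a bromodomain reader of acetylated histones, rose from 243, 255 and 258 CPM in CTL to 456, 464 and 455 CPM in Nelfb-/- libraries (log2 fold change 0.86, SE 0.13, limma adjusted p = 0.011). Tcea3, a relative of Tcea1, fell (log2 fold change -2.15, adjusted p = 0.011), as did Aff2, a relative of Aff4 (-1.19, adjusted p = 0.019), and Hexim2. With single libraries left out, Brd2 still passed in 3 of 6 cases, Tcea3 in 5 and Aff2 in 2. None of 8 genes of Integrator partners passed, beside 15.8% of all genes. Nabp1, which joins Ints3 in a DNA repair complex, was nearest (log2 fold change 0.95, limma adjusted p = 0.064). None of 23 cleavage, polyadenylation and termination genes passed by limma, beside 15.8% of all genes. Of the 23, 4 had an unadjusted p under 0.05, beside 32.5% of all genes.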

How the data were processed

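RNA-seq libraries of 3 CTL and 3 Nelfb-/- samples, called biological triplicates by the authors, were analysed from 1 table. The deposited values are CPM made by the authors with an offset of 0.0001 added, since each column summed to 1000000 once it was subtracted. The submitters' processing notes name STAR 2.7, Partek 9.0.20.0202 and mm10. The authors left genes under 10 reads out of their ANOVA. The counting tool is not given in the sources used here. Columns were matched to samples by name.

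The smallest step between low values was read as the worth of 1 read, which gave depths of 17.2 to 29.4 M reads (M, 1000000) and a floor of 3 reads. Of the values up to 20 reads, 72.8% to 75.1% were whole within 0.05 reads, so no count test was run. CPM values were multiplied by the mean depth (22.3 M), a unit not known when the pseudocount and filter were set. Genes with a mean of at least 10 such reads (0.448 CPM) entered a moderated linear model in limma (version 3.58.1 in R 4.3.3) of log2(reads + 1) with an abundance trend, with Benjamini-Hochberg adjustment across 16251 genes. Fold changes are on this scale, which understates the change of low genes. Ratios within a library were compared by exact permutation. The fit was also run on simulated data with independent noise for each gene. Those data hold no deviation of whole libraries like that of CTL replicate 3 and Nelfb-/- replicate 1. They therefore do not bear on the calls that moved with a library.

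Named are Nelfb, every member past the test, the largest and smallest change in each complex, 7 pairs, all other members by log2 fold change, and at most 3 genes of lowest p in each wider list. The values of further members in each library are given in addition. The members and lists were chosen with earlier results of these data known. Exon lengths are unions from GENCODE vM21, and promoters are from RefSeq, which matched 36 of 43 genes. A set of 17 alternatives was planned, and 1 was added after the data were seen. Other assays of the study were not analysed here.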

Additional observations from a re-analysis of the deposited data

How the results depend on the processing

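Of the 43 genes, 5 to 7 passed under the 11 planned settings other than leaving out a library, and 1 to 8 without 1 of the 6 libraries. Those at least 2-fold numbered 1, and became 2 under median-of-ratios scaling, 2 under upper-quartile scaling, 3 under quantile normalization and 1 to 4 when a library was left out. These scalings moved the median log2 fold change of all genes from 0.07 to -0.00, -0.00 and -0.07, and the share of higher genes among those passing from 63.1% to 56.4%, 55.9% and 49.7%. By complex, the 7SK count of 1 became 2 under quantile normalization. The SPT6 and FACT count of 1 became 0 with no filter, with 10 reads required in any library, under the 3 scalings, without the trend, with robust moderation, with the replicate block and without any library. Leaving out a library gave 0 to 4 for the super elongation complex and 0 to 4 for Integrator. For the wider lists, the Pol II subunit count of 1 became 0 with at least 10 reads in every library, under the 3 scalings, without the trend and with the block, and Integrator partners went from 0 to 1 under quantile normalization and cleavage genes from 0 to 1 with a pseudocount of 5. Leaving out a library gave 0 to 1 for Pol II subunits, 1 to 2 for NELF and DSIF, 0 to 5 for other elongation factors, 0 to 1 for Integrator partners and 0 to 1 for cleavage genes. Over all genes, 434 to 3668 passed when a library was left out. The causes were not tested.

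Without both CTL replicate 3 and Nelfb-/- replicate 1, chosen after the data were seen, 9366 of 16203 genes passed. The members numbered 30, of which 7 were at least 2-fold, with 2 for P-TEFb, 3 for 7SK, 4 for the super elongation complex, 3 for PAF, 3 for SPT6 and FACT, 4 for the tail kinases, 10 for Integrator and 1 for termination. The wider lists gave 5 Pol II subunits, 3 for NELF and DSIF, 15 other elongation factors, 2 Integrator partners and 11 cleavage genes.

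Estimates that did not pass the test in all 6 libraries changed sign as follows, given beside others that did not turn. Under median-of-ratios, and then upper-quartile scaling, the log2 fold change was -0.01 and -0.01 for Cdk9, -0.04 and -0.04 for Ell2, -0.06 and -0.07 for Supt6, -0.03 and -0.04 for Ints9 and -0.06 and -0.07 for Pcf11. Under quantile normalization it was -0.13 for Eaf2, -0.01 for Supt6, -0.11 for Ints9, -0.01 for Ints11 and -0.06 for Pcf11. Without both libraries that stand apart it was -0.21 for Cdk9, -0.77 for Ccnt2, -0.09 for Aff1, -0.21 for Ell2, -0.18 for Cdc73, -0.36 for Supt6, -0.29 for Ccnk, 0.14 for Tcea1, -0.0003 for Ints9, -0.33 for Pcf11 and 0.07 for Polr2m. Of these, Supt6 (adjusted p = 0.0092), Pcf11 (0.014), Ccnt2 (0.003) and Ccnk (0.037) passed by limma in that setting, the first and second with the sign turned. Leaving out 1 library gave -0.09 to 0.18 for Cdk9, -0.47 to 0.11 for Ccnt2, -0.01 to 0.18 for Aff1, -0.12 to 0.11 for Ell2, -0.03 to 0.40 for Eaf1, -0.14 to 0.04 for Cdc73, -0.22 to 0.12 for Supt6, -0.31 to 0.04 for Tcea1, -0.23 to 0.09 for Ccnk, -0.10 to 0.15 for Ints9, -0.17 to 0.12 for Pcf11 and -0.28 to -0.05 for Polr2m. The ratio of Ccnt1 to Ccnt2 then differed by -0.19 to 0.07 and that of Eaf1 to Eaf2 by -0.10 to 0.26.

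Same-numbered deviations from the group means correlated at 0.515, -0.395 and 0.518. These values cannot show whether the replicate numbers pair the samples, and the main fit used no block. With the replicate block 5 of the 43 genes passed, Supt16 being lost, and 2690 over all genes. With 3 libraries a group, the standard errors of the members lay between 0.11 and 0.41 on the log2 scale, and a missed test does not show equal levels.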
